A study of Mus musculus with 8 samples.

Results

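Transcript levels of 10 genes that govern the G1 phase of the cell cycle were examined in sorted blood progenitors of Jmjd6 knockout (KO) and wild type mice. The genes were Cdkn1a, Cdkn1b, Cdkn2c and Cdkn2d, which encode inhibitors of cyclin-dependent kinases (CDKs), Ccnd1, Ccnd2 and Ccnd3, which encode the D cyclins, Cdk4 and Cdk6, which encode the kinases the D cyclins switch on, and Rb1, which encodes the retinoblastoma protein. They are 10 of the 26146 rows of the count table and were picked by name. The choice was made with the Jmjd6 KO against wild type difference of Cdkn1a already known, so the values of that contrast are given below as a description of these genes and carry no test of them. All 10 passed the filter on low counts, as did 13439 genes in all.

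Polyadenylated RNA was sequenced in bulk from Lin-Sca1+Kit+ (LSK) cells of 4 Jmjd6 KO mice and 4 wild type mice, with 1 library from each mouse. The KO mice had lost a floxed Jmjd6 in blood lineages through a Cre that the labels call cell type specific without naming it, and the labels do not say whether the wild type mice carried the floxed alleles or the Cre. Neither the age of the mice nor a treatment is given. LSK cells are the bone marrow population that contains the haematopoietic stem cells and the early multipotent progenitors, and Jmjd6 encodes a JmjC-domain oxygenase.

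Cells leave G1 when cyclin D-CDK4 and cyclin D-CDK6 complexes phosphorylate the retinoblastoma protein, which otherwise holds E2F factors and keeps genes of DNA replication silent. INK4 proteins bind CDK4 and CDK6 themselves and block pairing with a D cyclin. CIP/KIP proteins bind whole cyclin-CDK complexes, inhibit cyclin E-CDK2, and can also help to assemble cyclin D-CDK4. In haematopoietic stem cells this machinery is known for its part in quiescence, and Cdkn1a, which encodes p21, is a classical target of p53.

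Promoters of 3 of the genes are shown. Cdkn1a was taken because its known KO against wild type difference sets it apart. Cdkn1b was taken as the closest relative of Cdkn1a among the 10, and Cdk4 as the gene with the highest level per length. Each sequence is the 250 bases before an annotated start, 5′ to 3′ on the strand of the gene, from RefSeq on build GRCm38.p6, which is the build that mm10 names. Cdkn1a has 2 such starts 2790 bases apart. The first window is chr17:29090729-29090978 and the second is chr17:29093519-29093768. The window of Cdkn1b, which encodes the related CIP/KIP inhibitor p27, is chr6:134920151-134920400, and that of Cdk4 is chr10:127063285-127063534. All 4 windows lie on the plus strand. Capitals mark p53 response-element decamers in the first Cdkn1a window, GC boxes (GGGCGG) and a TATA box (TATAA) in the second, a GC box and CCAAT boxes (CCAAT) in Cdkn1b, and E boxes (CACGTG) and a GC box read on the other strand in Cdk4.
Cdkn1a start 1: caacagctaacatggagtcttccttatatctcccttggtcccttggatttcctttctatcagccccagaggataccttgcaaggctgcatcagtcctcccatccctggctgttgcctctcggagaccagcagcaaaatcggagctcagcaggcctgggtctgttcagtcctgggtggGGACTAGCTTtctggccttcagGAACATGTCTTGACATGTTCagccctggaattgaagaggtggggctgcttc
Cdkn1a start 2: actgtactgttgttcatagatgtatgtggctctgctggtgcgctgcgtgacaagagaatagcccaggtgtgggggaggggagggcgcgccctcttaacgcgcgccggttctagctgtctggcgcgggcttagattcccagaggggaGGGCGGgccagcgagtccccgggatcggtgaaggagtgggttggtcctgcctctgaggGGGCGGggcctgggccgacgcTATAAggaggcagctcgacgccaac
Cdkn1b: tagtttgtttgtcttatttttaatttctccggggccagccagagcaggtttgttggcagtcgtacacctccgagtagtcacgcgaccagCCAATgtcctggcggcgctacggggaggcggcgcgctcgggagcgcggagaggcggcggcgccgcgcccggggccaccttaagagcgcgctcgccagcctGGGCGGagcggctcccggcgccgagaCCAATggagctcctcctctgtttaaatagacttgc
Cdk4: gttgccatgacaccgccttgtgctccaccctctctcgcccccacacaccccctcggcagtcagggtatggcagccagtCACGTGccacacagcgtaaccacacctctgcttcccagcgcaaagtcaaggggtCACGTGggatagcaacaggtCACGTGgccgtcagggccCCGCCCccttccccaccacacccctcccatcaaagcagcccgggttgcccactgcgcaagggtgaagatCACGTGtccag

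The first Cdkn1a window held 2 exact matches to the p53 decamer consensus, at positions -73 to -64 and -51 to -42 from the start. The second of these is followed directly by another decamer, and the pair at -51 to -32 had 1 mismatch to the full consensus. A pair with at most 1 mismatch was present in 0.0762% of 32817 windows of the same length across the annotation, and a single decamer in 7.12%. The second Cdkn1a window held GC boxes at -104 to -99 and -46 to -41 and a TATA box at -25 to -21. The Cdk4 window held 4 E boxes, of which at least 1 was present in 6.02% of all windows. Motifs were searched on both strands except the TATA box, which was searched on the strand of the gene. GC boxes were present in 32.7%, CCAAT boxes in 33.8% and TATA boxes in 16% of all windows. RefSeq windows were at hand for 7 of the 10 genes, 10 windows in all, and not for Ccnd1, Ccnd2 and Rb1. Of these 10 windows, 7 held a GC box, 3 a CCAAT box and 0 an E2F site (TTTCCCGC or TTTGGCGC), which 1.3% of all windows hold. These matches describe letters only. The deposited counts are totals per gene and do not tell the 2 Cdkn1a starts apart.

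The libraries held 9964528 to 13516922 counts in KO mice and 9344779 to 15079960 in wild type mice. Jmjd6, the gene targeted in the KO mice, was at 28.7, 28.1, 30.7 and 27.5 CPM in KO libraries 1 to 4, against 52.5, 63.7, 54.6 and 63.7 CPM in wild type libraries 1 to 4, where CPM are counts scaled to library size by the TMM method. Its log2 fold change was -1.03 (SE 0.152, adjusted p = 0.0381 by edgeR's quasi-likelihood test with Benjamini-Hochberg adjustment over all genes tested). The groups did not overlap, while the adjusted p lay between 0.0401 and 0.254 when 1 library was left out. Jmjd6 in KO libraries was thus still at 0.49 of its wild type level, and counts per gene do not show the source of what remained. Markers of the LSK gate were present in both groups, with mean levels in KO and wild type libraries of 463 and 473 CPM for Kit, 175 and 135 CPM for Ly6a, which encodes Sca-1, and 1242 and 1274 CPM for Cd34. KO library 3 and wild type library 4 had 0 counts of 4 Y-linked genes, where the other 6 libraries had 3660 to 4814. KO library 3 scored 83.89 on a first principal component holding 37.78% of the variance, and the other 7 libraries scored -28.04 to 9.407. Wild type library 1 carried more transcripts of other lineages, with granulocyte markers summing to 5233 CPM and erythroid markers to 715 CPM, where KO libraries held 1551 to 2381 and 109 to 188 CPM and wild type libraries 2 to 4 held 983 to 1255 and 92.4 to 183 CPM.

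Cdkn1a, on chromosome 17 at 29090976 to 29100727 (mm10, plus strand), stood apart from the other 9 genes. It was at 73.9, 58.5, 57.5 and 43.4 CPM in KO libraries 1 to 4, against 24.1, 27.5, 28.1 and 32.7 CPM in wild type libraries 1 to 4. Every KO library lay above every wild type library, with the lowest KO value in library 4 and the highest wild type value also in library 4. The means were 58.3 ± 12.5 CPM in KO libraries and 28.1 ± 3.56 CPM in wild type libraries (SD, n = 4 each), from 2723 and 1430 counts in all. That is a 2.07-fold level, or a log2 fold change of 1.05 (SE 0.192). Groups that do not overlap, with KO above wild type, were found for 279 genes, 2.08% of those tested. Among 12215 genes with a mean log2 CPM above 1, 47, or 0.385%, had a log2 fold change at least as high.

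**Figure D1:**
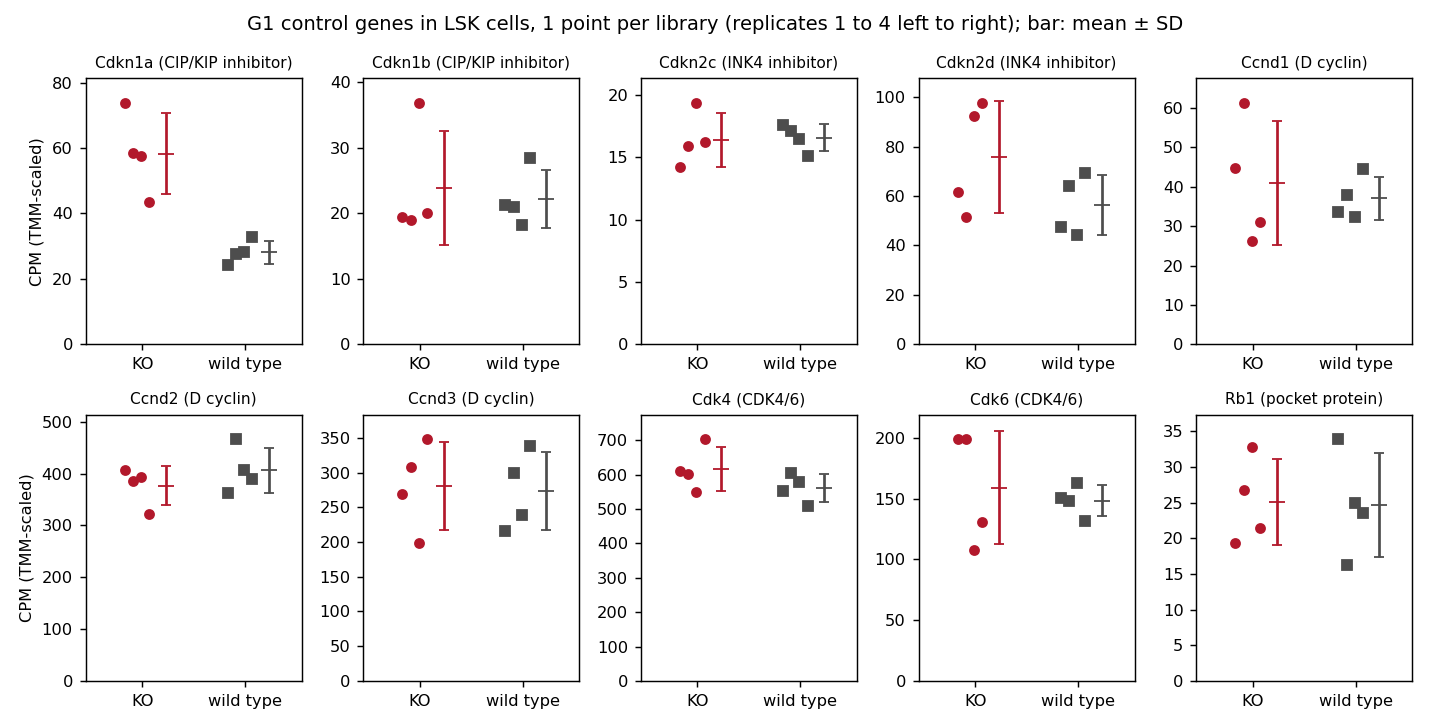
Level of each of the 10 genes in CPM (counts scaled to library size by TMM, each axis from 0), with 1 point per library, KO left of wild type, and the bar giving the mean and SD of 4 libraries. Cdkn1a is the gene whose groups separate, at 43.4 to 73.9 CPM in KO and 24.1 to 32.7 CPM in wild type libraries.

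Whether Cdkn1a is counted among changed genes depended on the method. In the whole-table fit with edgeR's quasi-likelihood test it ranked 14th by p-value, with an adjusted p of 0.149, and was not among the 8 genes called at 0.05, which are 0.0595% of those tested. DESeq2 gave it an adjusted p of 0.00051 and called 72 genes, 0.473% of its 15226, and limma voom with sample weights gave 0.016 and called 31 genes, 0.231%. The fold change itself moved little, from 0.94 to 1.17 on the log2 scale over 19 alternatives. Its sign could hardly have changed, since every KO library lay above every wild type library. Without KO library 3 and wild type library 1, the libraries that stood apart, the log2 fold change was 0.99 (edgeR adjusted p = 0.184), and within the 6 libraries with Y-linked counts it was 1.14 (edgeR adjusted p = 0.202). Within the libraries without Y-linked counts, 1 of each genotype, the levels were 57.5 CPM in KO library 3 and 32.7 CPM in wild type library 4.

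**Figure D2:**
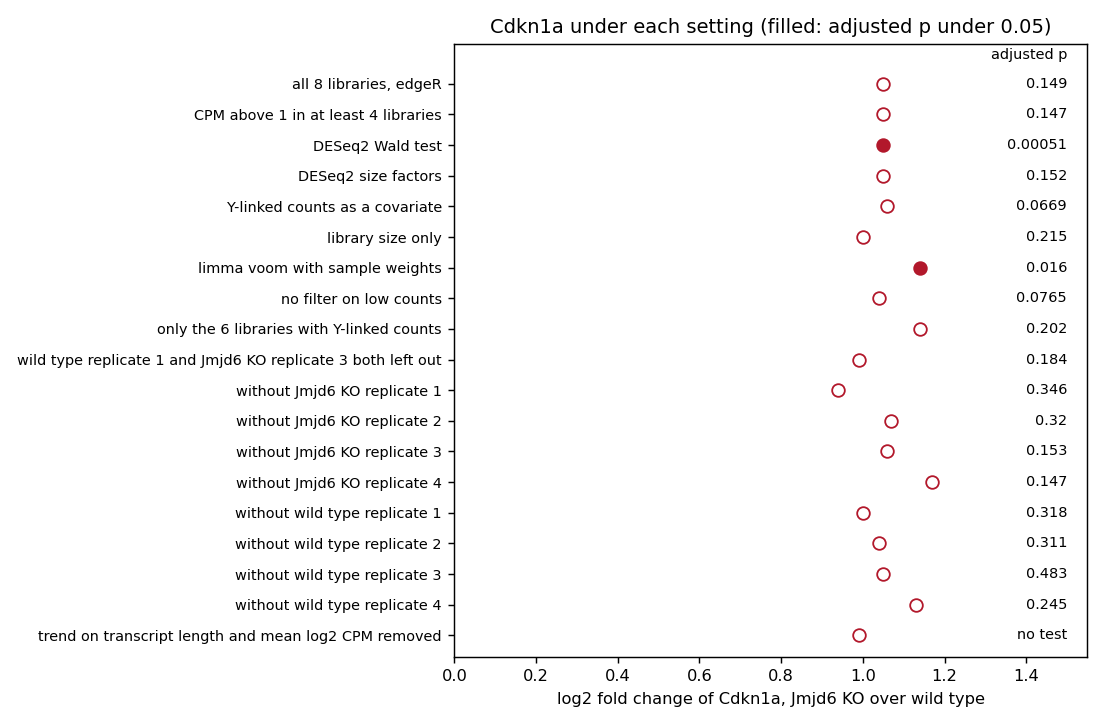
Log2 fold change of Cdkn1a, KO over wild type, over all 8 libraries and under each alternative except the replicate block (open symbols: adjusted p above 0.05 or no test), with the adjusted p printed at the right. The values lie between 0.94 and 1.17 throughout, while the adjusted p ranges from 0.00051 with DESeq2 to 0.483 without wild type replicate 3.

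The other CIP/KIP inhibitor among the 10 genes, Cdkn1b (chromosome 6, 134920401 to 134925513, plus strand), encodes p27. It was at 19.5, 19.0, 36.9 and 20.1 CPM in KO libraries 1 to 4, against 21.2, 20.9, 18.2 and 28.5 CPM in wild type libraries 1 to 4. KO library 3 held the highest value, the other KO libraries lay inside the wild type range, and the log2 fold change was 0.11 (SE 0.255). The highest value in each genotype came from its library without Y-linked counts. Without KO library 3 the log2 fold change was -0.18. The ratio of Cdkn1a to Cdkn1b, with both levels divided by transcript length, was 8.28, 6.73, 3.41 and 4.71 in KO libraries 1 to 4, against 2.48, 2.88, 3.39 and 2.51 in wild type libraries 1 to 4. The ratio averaged 5.78 ± 2.15 in KO and 2.82 ± 0.420 in wild type libraries (SD, n = 4 each), and the groups did not overlap, although KO library 3 and wild type library 3 nearly met. Since the ratio carries the known difference of Cdkn1a, its separation is no further result. The third CIP/KIP gene, Cdkn1c, encodes p57, which is known for a role in stem cell quiescence. It was low, at 4.66, 3.39, 7.02 and 4.03 CPM in KO libraries, against 6.18, 8.05, 10.1 and 7.82 CPM in wild type libraries. Its groups overlapped and its log2 fold change of -0.75 (SE 0.30) had an edgeR adjusted p of 0.772, opposite in sign to that of Cdkn1a.

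The INK4 inhibitors present in these cells were Cdkn2d (chromosome 9, 21288410 to 21291407, minus strand), encoding p19Ink4d, and Cdkn2c (chromosome 4, 109660876 to 109667189, minus strand), encoding p18Ink4c, whose loss in mice is known to expand haematopoietic stem cells. Cdkn2d was at 61.8, 51.5, 92.3 and 97.8 CPM in KO libraries 1 to 4, against 47.6, 64.0, 44.4 and 69.5 CPM in wild type libraries 1 to 4. KO libraries 3 and 4 lay above every wild type library and KO libraries 1 and 2 among them, for means of 75.8 ± 22.7 and 56.4 ± 12.3 CPM (SD, n = 4 each) and a log2 fold change of 0.43 (SE 0.234). Among the 10 genes this was the largest difference after that of Cdkn1a, at an edgeR adjusted p of 0.832, and it ranged from 0.28 without KO library 4 to 0.59 without KO library 2. Cdkn2c was nearly level, at 14.2, 15.9, 19.4 and 16.2 CPM in KO libraries, against 17.6, 17.1, 16.5 and 15.1 CPM in wild type libraries (log2 fold change -0.01, SE 0.187). The remaining INK4 genes were at the floor. Cdkn2b, encoding p15Ink4b, had 0 counts in all 8 libraries, and Cdkn2a, which encodes p16Ink4a and p19Arf, had 1 count in KO library 4 and 1 in wild type library 2.

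Added together per kilobase of longest annotated transcript, the 4 inhibitors Cdkn1a, Cdkn1b, Cdkn2c and Cdkn2d came to 89.0, 75.0, 108 and 101 CPM per kb in KO libraries 1 to 4, against 56.8, 69.7, 55.4 and 76.9 CPM per kb in wild type libraries 1 to 4. The sums averaged 93.2 ± 14.6 and 64.7 ± 10.4 CPM per kb (SD, n = 4 each), and KO library 2 lay below wild type library 4. Cdkn2d supplied the largest share in every library, and the KO libraries differed in how much Cdkn1a and Cdkn2d each added to the sum. Cdkn1a supplied 39.9%, 37.5%, 25.5% and 20.7% of it in KO libraries 1 to 4, against 20.4%, 19.0%, 24.4% and 20.4% in wild type libraries 1 to 4. The share of Cdkn2d was 48.8%, 48.3%, 59.8% and 68.3% in KO libraries 1 to 4, against 58.9%, 64.5%, 56.3% and 63.5% in wild type libraries 1 to 4. KO libraries 1 and 2 thus had the largest shares of Cdkn1a, and KO libraries 3 and 4 the highest levels of Cdkn2d. Since the sum and the shares carry the known difference of Cdkn1a, they are no further result.

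The D cyclins are the growth-factor-responsive partners of CDK4 and CDK6. Ccnd2 (chromosome 6, 127125162 to 127152193, minus strand) was at 406, 385, 394 and 321 CPM in KO libraries 1 to 4, against 363, 466, 406 and 390 CPM in wild type libraries 1 to 4 (log2 fold change -0.11, SE 0.141, and -0.04 without KO library 4). Ccnd3 (chromosome 17, 47505051 to 47599691, plus strand) was at 269, 308, 199 and 348 CPM in KO libraries, against 216, 300, 239 and 338 CPM in wild type libraries (log2 fold change 0.04, SE 0.199). The groups overlapped for both cyclins. Ccnd1 (chromosome 7, 144929931 to 144939925, minus strand), the lowest of the 3 also per kilobase, was at 44.9, 61.4, 26.3 and 31.1 CPM in KO libraries, against 33.6, 37.8, 32.4 and 44.5 CPM in wild type libraries (log2 fold change 0.14, SE 0.253). Its KO libraries spread to either side of the wild type ones, with a coefficient of variation of 38.5% in KO and 14.7% in wild type libraries.

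Summed per kilobase, the 3 D cyclins came to 143 ± 15.6 CPM per kb in KO and 145 ± 19.5 CPM per kb in wild type libraries (SD, n = 4 each). Ccnd3 made up 50.5% ± 7.48 of the sum in KO and 48.6% ± 4.01 in wild type libraries, Ccnd2 42.0% ± 7.52 and 44.6% ± 4.30, and Ccnd1 7.52% ± 2.29 and 6.85% ± 0.589. Each share differed between genotypes by less than the spread between KO mice, and for Ccnd1 by slightly more than the spread between wild type mice. KO library 4 was the furthest from the rest, with Ccnd3 at 60.5% and Ccnd2 at 33.9%.

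Cdk4 (chromosome 10, 127063534 to 127067920, plus strand), the highest of the 10 genes also per kilobase, was at 610, 601, 550 and 703 CPM in KO libraries 1 to 4, against 553, 605, 580 and 508 CPM in wild type libraries 1 to 4 (log2 fold change 0.13, SE 0.136). Cdk6 (chromosome 5, 3341485 to 3531008, plus strand) was at 199, 199, 108 and 131 CPM in KO libraries, against 151, 148, 163 and 132 CPM in wild type libraries (log2 fold change 0.10, SE 0.200). KO libraries 1 and 2 lay above the wild type range of Cdk6, KO library 3 below it and KO library 4 at its lower edge. The coefficient of variation was 29.3% in KO and 8.54% in wild type libraries. The ratio of Cdk4 to Cdk6 per kilobase was accordingly 17.2, 17.0, 28.5 and 30.2 in KO libraries 1 to 4, on either side of the 20.6, 23.0, 20 and 21.6 of wild type libraries 1 to 4. Ccnd1 showed the same arrangement of KO libraries as Cdk6, high in libraries 1 and 2 and low in 3 and 4, and Cdkn2d the opposite one. Rb1 (chromosome 14, 73183673 to 73325822, minus strand), whose protein is the target of these kinases, was at 19.4, 26.8, 32.8 and 21.5 CPM in KO libraries, against 33.9, 16.2, 24.9 and 23.6 CPM in wild type libraries (log2 fold change 0.03, SE 0.251). Of its relatives, Rbl1 (p107) averaged 102 ± 33.8 CPM in KO and 85.9 ± 26.5 CPM in wild type libraries, and Rbl2 (p130) 90.8 ± 12.9 and 106 ± 6.78 CPM (SD, n = 4 each), both with overlapping groups.

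Taking the 10 genes as a list, 0 were called by edgeR's quasi-likelihood test and 1, Cdkn1a, by each of DESeq2 and limma voom. Cdkn1a was also the 1 gene of the list with an unadjusted edgeR p under 0.05, a level reached by 6.06% of all genes tested. Of the 10, 8 had a log2 fold change above 0, against 49.6% of all genes tested, and their median was 0.10, against -0.002 for all. The median size of the change regardless of sign was 0.11, against 0.19 for all genes tested. The 9 genes other than Cdkn1a had overlapping groups, log2 fold changes of -0.11 to 0.43 and edgeR adjusted p-values of at least 0.832. Such values do not show that the 9 genes were equal between genotypes, since a standard error of 0.136 to 0.255 leaves room for differences of that order.

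Per kilobase of transcript, the order of the 10 genes was the same in both genotypes. Cdk4 led with 300.0 CPM per kb in KO and 273 CPM per kb in wild type libraries, and did not overlap with Ccnd3, the next gene, at 72.9 and 70.8 CPM per kb. Ccnd2 followed at 59.4 and 64.2 CPM per kb and Cdkn2d at 53.3 and 39.6 CPM per kb, a pair of neighbours that overlapped in KO libraries and not in wild type libraries. Cdkn1a came next with 28 CPM per kb in KO and 13.5 CPM per kb in wild type libraries. In KO libraries its range of 20.9 to 35.5 CPM per kb was clear of that of Cdk6, at 9.40 to 17.2. In wild type libraries its 11.6 to 15.7 CPM per kb overlapped with the 11.5 to 14.1 of Cdk6. Below came Cdk6 with means of 13.8 and 12.9, Ccnd1 with 10.9 and 9.91, Cdkn2c with 6.65 and 6.70, Rb1 with 5.40 and 5.29, and Cdkn1b with 5.25 and 4.87 CPM per kb. In both genotypes Cdkn2c overlapped with Rb1, and Rb1 with Cdkn1b. These levels rest on the longest annotated transcript of each gene, from 1423 bases for Cdkn2d to 11525 for Cdk6, so a shorter transcript in use would raise the level of its gene.

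**Figure D3:**
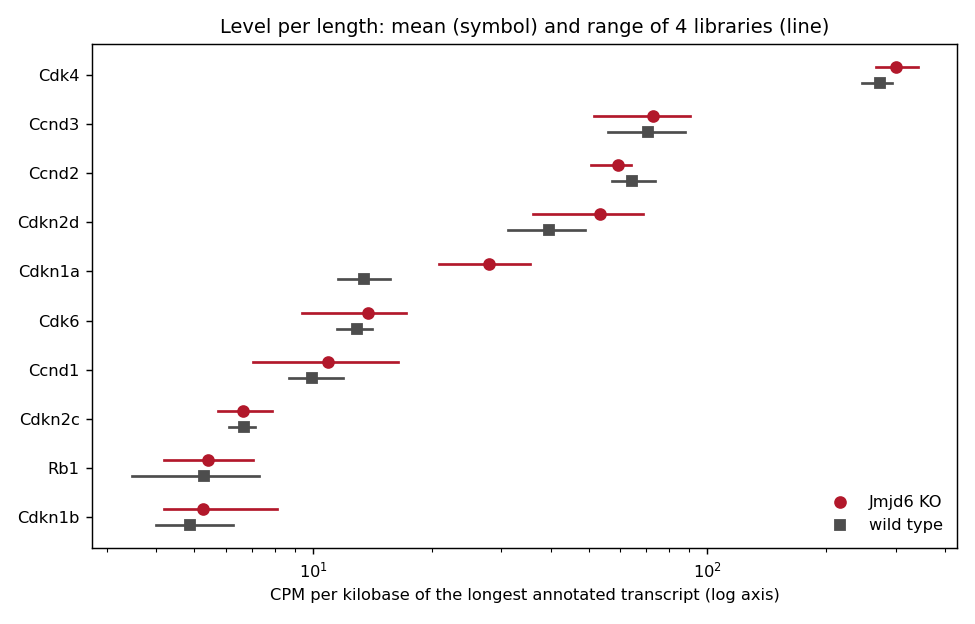
Level per kilobase of the longest annotated transcript on a log axis, with the mean as a symbol and the range of 4 libraries as a line, KO above wild type for each gene. Cdk4 leads in both genotypes, and Cdkn1a lies clear of Cdk6 in KO libraries, at 20.9 to 35.5 against 9.40 to 17.2 CPM per kb.

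Several of the genes share exon bases with a gene on the opposite strand, and the strand setting of the authors' counting is not given, so reads of such pairs may not be told apart. Cdk4 shares 641 bases with Tspan31, Ccnd1 shares 1100 with LTO1, Ccnd3 shares 361 with Bysl, and Rb1 shares 408 with Lpar6 and 488 with Rcbtb2. Tspan31 averaged 141 ± 33.9 CPM in KO and 116 ± 15.5 CPM in wild type libraries (log2 fold change 0.28, and 0.12 without KO library 3). The log2 fold changes of the other 4 were 0.00 for LTO1, 0.16 for Bysl, -0.07 for Lpar6 and 0.01 for Rcbtb2. For Ccnd2 the antisense gene 9330179D12Rik, which shares 368 bases, was at 0.746 CPM in KO and 1.39 CPM in wild type libraries. Cdkn1a shares 273 exon bases with AC167363.2, a gene model on the opposite strand.

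The chromosomal surroundings of Cdkn1a were compared, since 47 annotated genes start within 500 kb of it. Of these 18 were tested, 0 were called by edgeR's quasi-likelihood test, and 2 had an unadjusted p under 0.05. That level was reached by 6.06% of all genes tested. The log2 fold changes of the 18 neighbours ran from -1.17 to 0.44 with a median of -0.01, 9 above 0 and 9 below. BC004004, which starts 177.8 kb downstream, was at 126 ± 15.3 CPM in KO and 97.0 ± 2.64 CPM in wild type libraries (SD, n = 4 each; log2 fold change 0.38). Mapk13, which encodes a p38 kinase and starts at -321.7 kb, was at 1.22 ± 0.682 CPM in KO and 2.73 ± 1.23 CPM in wild type libraries (log2 fold change -1.17). Ppil1, a peptidyl-prolyl isomerase gene, had the next smallest p, with 171 ± 27.3 CPM in KO and 136 ± 14.3 CPM in wild type libraries. Trp53cor1 (lincRNA-p21), the p53-responsive non-coding gene that starts at -11.8 kb, was at 4.2 ± 2.20 CPM in KO and 5.79 ± 1.81 CPM in wild type libraries (log2 fold change -0.46). This gene, chosen outside the rule for named genes, had overlapping groups and an edgeR adjusted p of 0.865.

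**Figure D4:**
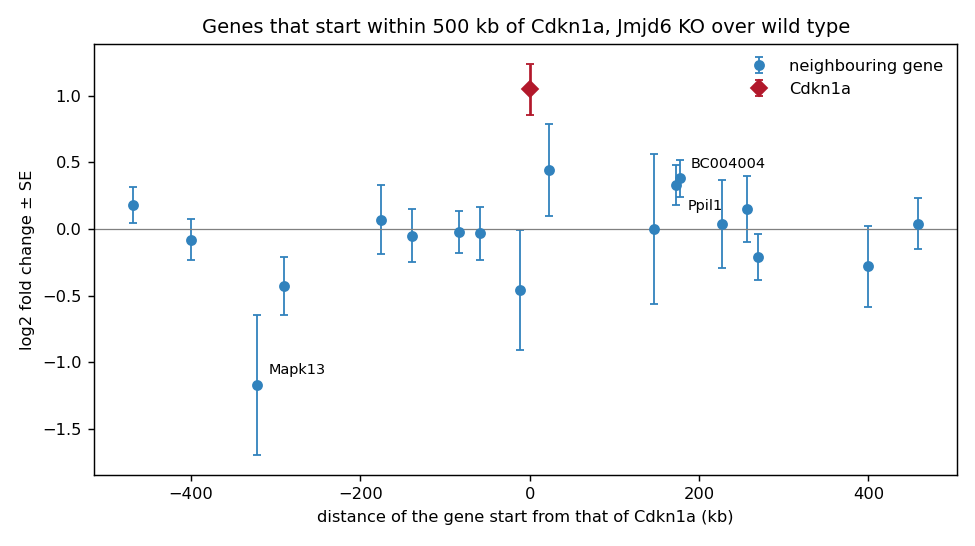
Log2 fold change with its SE (KO over wild type) of the tested genes that start within 500 kb of Cdkn1a, by distance of their start in kb. Cdkn1a at 1.05 lies above its 18 tested neighbours, which range from -1.17 to 0.44.

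Other genes of G1 and of the later cell cycle were described from 16 lists of regulators, targets and phase markers, 162 genes besides the 10. Of these 158 were tested and 0 were called by edgeR's quasi-likelihood test, by DESeq2 or by limma voom. An unadjusted edgeR p under 0.05 was found for 10 of them, 8 higher and 2 lower in KO libraries, which is 6.33% against 6.06% of all genes tested. Of the 158, 113 had a log2 fold change above 0, 71.5% against 49.6% of all genes tested, and their median was 0.09. This share includes the S phase list, with 31 of 32 genes above 0, and the G2 and mitosis list, with 29 of 30. It is thus not a share of G1 genes alone. Among p53 target genes 17 of 29 lay above 0, and in the Myc network 4 of 10.

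Upstream of Cdkn1a, Trp53, which encodes p53, averaged 414 ± 28.6 CPM in KO and 347 ± 97.3 CPM in wild type libraries (SD, n = 4 each), where wild type library 2 was low at 209 CPM. Its log2 fold change was 0.25, and 0.07 without that library. Among 10 genes of p53 and its regulators 3 lay above 0, with a median of -0.04. Of 30 listed p53 target genes other than Cdkn1a, 29 were tested, 17 lay above 0, and the median was 0.02. The target gene with the smallest p was Btg2, an antiproliferative gene, at 155, 149, 116 and 140 CPM in KO libraries, against 91.2, 133, 107 and 75.2 CPM in wild type libraries (log2 fold change 0.46, edgeR adjusted p = 0.772). Psrc1 and Perp followed at 0.34 and 0.70, the second at 0.46 without wild type library 1. Mdm2, the ubiquitin ligase that p53 induces against itself, was at 95.2 ± 10.6 CPM in KO and 95.6 ± 11.2 CPM in wild type libraries. Ccng1, which encodes cyclin G1, was at 135 ± 10.1 and 149 ± 7.93 CPM (SD, n = 4 each). Both were picked outside the rule as textbook targets. Plk2, also named outside the rule, had the highest log2 fold change of the list at 0.71. It averaged 21.3 ± 12.7 CPM in KO and 12.9 ± 4.72 CPM in wild type libraries, with overlap. The targets summed to 1286 to 1346 CPM in KO and 1178 to 1369 CPM in wild type libraries, so the KO range lay inside the wild type range.

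The Myc network, which acts on Cdkn1a and the D cyclins, had 10 tested genes with a median of -0.05 and 4 above 0. Max, the partner of Myc, was at 41.7 ± 6.45 CPM in KO and 67.5 ± 39.4 CPM in wild type libraries, where wild type library 4 alone held 126 CPM. Mycn averaged 80.9 ± 24.3 and 115 ± 32.8 CPM, and Mxd4, a Myc antagonist, 17.7 ± 4.25 and 12 ± 3.20 CPM, in KO and wild type libraries (SD, n = 4 each). The log2 fold change of Max was -0.70, and -0.20 without wild type library 4, and that of Mycn was -0.52, and -0.31 without KO library 3. The edgeR adjusted p exceeded 0.5 for each of these 3 genes.

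Genes for the turnover of p27 and p21 were close to level, 6 of 11 above 0 with a median of 0.03, and the 3 with the smallest p were Rbx1 at 0.34, Cks1b at 0.27 and Cks2 at 0.24. Genes for the turnover of D cyclins had 4 of 8 above 0 and a median of -0.01. Cul3, with the smallest p of that list, was at -0.38, and Cryab, the furthest from 0 but near 1 CPM, was at 0.60 with all libraries and -0.34 without KO library 3. The CDK-activating kinase had Mnat1 at 0.31 and Cdk7 and Ccnh at 0.01. Of 6 genes of cyclin E, CDK2 and CDC25, 3 lay above 0 with a median of 0.04, and Ccne2, which encodes cyclin E2, averaged 120 ± 31.9 CPM in KO and 97.3 ± 19.9 CPM in wild type libraries. Of 10 E2F and DP factors 7 lay above 0 with a median of 0.02, and E2f3 was at -0.33. Of 7 genes of the DREAM and MuvB complexes, which repress or activate cell cycle genes, 5 lay above 0 with a median of 0.18, among them Rbbp4 at 0.18 and Lin54 at 0.20. Several of these values rested on KO library 3: without it the log2 fold change was 0.10 for Mnat1, 0.17 for Rbx1, 0.17 for Cks1b, 0.10 for Ccne2 and 0.01 for Lin54. Without KO library 4 that of Rbbp4 was 0.04. Without wild type library 4 that of Cks2 was 0.15 and that of Cul3 was -0.12.

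Genes that act after G1 lay mostly above 0. Of 32 genes of S phase and replication, 31 had a log2 fold change above 0, with a median of 0.18. An unadjusted edgeR p under 0.05 was found for 4 of the 32, against 6.06% of all genes tested. The list summed to 7426, 7277, 7769 and 7707 CPM in KO libraries 1 to 4, against 7261, 6467, 6739 and 6152 CPM in wild type libraries 1 to 4. These sums did not overlap, although KO library 2 and wild type library 1 nearly met. Fen1, a flap endonuclease, was at 225, 202, 304 and 294 CPM in KO libraries, against 188, 205, 171 and 189 CPM in wild type libraries. Gins1, of the replicative helicase, was at 39.9, 39.8, 65.4 and 52.1 CPM in KO libraries, against 37.3, 34.5, 33.2 and 34.6 CPM in wild type libraries. The Gins1 groups did not overlap and those of Fen1 did. In this list 4 of the 32 genes had KO above wild type without overlap, against 2.08% of all genes tested. Gins2 averaged 63.5 ± 13.4 CPM in KO and 47.6 ± 3.10 CPM in wild type libraries. Log2 fold changes were 0.44, 0.50 and 0.42 for Fen1, Gins1 and Gins2 (0.33 for Gins1 without KO library 3), and 0 genes of the list were called by edgeR, DESeq2 or limma voom. Over 19 alternatives the lowest values were 0.27 for Fen1, 0.28 for Gins1 and 0.23 for Gins2.

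Of 30 genes of G2 and mitosis, 29 lay above 0, with a median of 0.22. An unadjusted edgeR p under 0.05 was found for 3 of the 30, against 6.06% of all genes tested. Their sums were 4851, 4730, 4709 and 5150 CPM in KO libraries 1 to 4, against 5394, 4007, 3855 and 3700 CPM in wild type libraries 1 to 4. Wild type library 1 held the highest sum and the other 3 wild type libraries the lowest, so the groups overlapped through that library alone. It also carried more transcripts of other lineages, and whether these have a part in its sum was not tested. Prc1, a regulator of the mitotic spindle, averaged 158 ± 26.4 CPM in KO and 119 ± 9.17 CPM in wild type libraries, and Cdca8, which encodes borealin, 181 ± 36.6 and 132 ± 14.1 CPM (SD, n = 4 each), both without overlap. They were the 2 of the 30 genes with KO above wild type without overlap, against 2.08% of all genes tested. Aurka, a mitotic kinase, averaged 116 ± 19.3 and 87.5 ± 19.1 CPM with overlap. Again 0 genes of the list were called by edgeR, DESeq2 or limma voom. Cdkn1a and the S phase and mitosis lists were thus all higher in KO libraries on average. In bulk libraries more cells of a kind and more RNA per cell cannot be told apart, and neither can whether Cdkn1a and these genes came from the same cells.

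**Figure D5:**
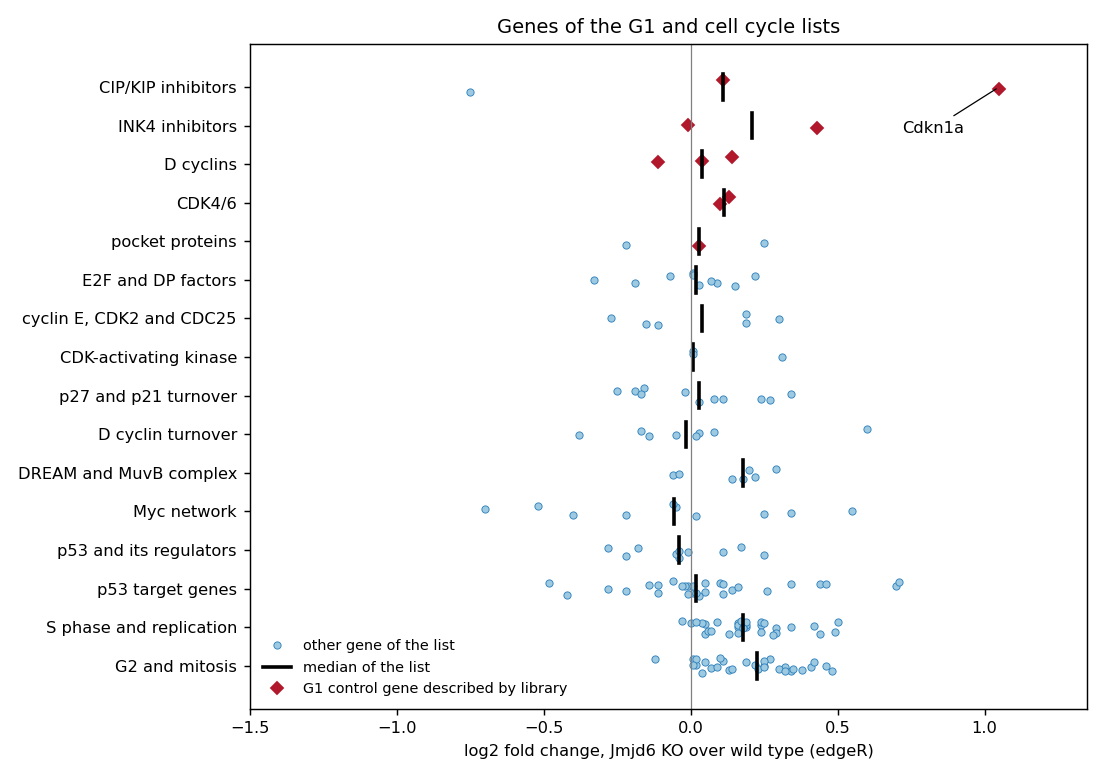
Log2 fold change (KO over wild type, edgeR) of each tested gene in the G1 and cell cycle lists, with the members and the list medians marked. The S phase and the G2 and mitosis lists lie mostly right of 0, with medians of 0.18 and 0.22, while p53 target genes centre on 0.02.

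Transcript length moved with the fold change across the whole table. The median log2 fold change was 0.17 in the quintile of genes with the shortest transcripts (38 to 1814 bases) and -0.12 in the quintile with the longest (5079 to 123179 bases). Cdkn1a at 2080 bases belongs to the next quintile, whose median was 0.06. With a trend on length and mean level removed, the log2 fold change of Cdkn1a was 0.99 and that of Cdkn2d was 0.27. That of Cdk4 was -0.02, against 0.13 as fitted, and the other 7 genes lay between -0.08 and 0.20. The medians of the S phase list (0.18) and the G2 and mitosis list (0.22) are as fitted. The part of this trend in them was not tested.

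Markers of other cells were compared beside Cdkn1a. T and NK cell markers summed to 354, 350, 472 and 450 CPM in KO libraries 1 to 4, against 308, 280, 248 and 190 CPM in wild type libraries 1 to 4, without overlap. Without Nkg7, a granule gene of cytotoxic cells, the remaining markers summed to 95.2, 83.0, 98.2 and 87.3 CPM in KO libraries, against 75.4, 91.0, 91.0 and 64.8 CPM in wild type libraries, and the groups overlapped. Of 9 listed markers 4 were tested and all lay above 0, led by Cd4 at 15.7 CPM in KO and 7.62 CPM in wild type libraries and Nkg7 at 316 and 176 CPM. The defining T cell markers were at or near 0, with Cd3e at 0 counts in KO libraries and 1 count in wild type libraries, Cd3g at 2 and 9 counts, Cd3d at 11 and 2 counts, and Cd8a at 3 and 8 counts over 4 libraries each. B cell markers summed to 97.5 to 152 CPM in KO and 68.5 to 109 CPM in wild type libraries, monocyte and macrophage markers to 138 to 246 and 115 to 369 CPM, and megakaryocyte markers to 134 to 174 and 104 to 231 CPM. Within the monocyte and macrophage list, Vsig4, which encodes a complement receptor of macrophages, was at 5.19, 5.14, 11.4 and 3.18 CPM in KO libraries 1 to 4, against 0.221, 0.200, 0.703 and 1.2 CPM in wild type libraries 1 to 4. Its groups did not overlap, and its log2 fold change of 3.36 had an adjusted p of 0.149 with edgeR, 9.09e-06 with DESeq2 and 0.025 with limma voom. Cd68, a lysosomal marker of macrophages, averaged 42.2 ± 14.7 CPM in KO and 25.5 ± 6.84 CPM in wild type libraries (SD, n = 4 each), with overlap. Vsig4 and Cd68 had the highest log2 fold changes of the 8 markers on that list. Of the 8, 4 lay above 0 and 4 below, with a median of -0.03. The sum of the 12 LSK and stem cell markers was 3290 to 3875 CPM in KO and 3611 to 4492 CPM in wild type libraries. Of the 12, 9 had a log2 fold change below 0 and 3 above 0, where 49.6% of all genes tested lay above 0. Hlf, whose product is a stem cell transcription factor, was at 161, 157, 145 and 118 CPM in KO libraries, against 205, 178, 250 and 276 CPM in wild type libraries. Slamf1, which encodes the stem cell surface marker CD150, was at 10.6, 9.25, 11.9 and 11.6 CPM in KO libraries, against 3.98, 4.66, 9.04 and 5.17 CPM in wild type libraries. Hlf (log2 fold change -0.65) was thus lower and Slamf1 (0.93) higher in every KO library than in every wild type library, with edgeR adjusted p-values of 0.489 and 0.67. Of the 12 markers, 1 lay above and 1 below without overlap. KO above wild type without overlap was found for 2.08% of all genes tested, and the share with KO below was not counted. Mecom, another stem cell transcription factor gene, averaged 37.3 ± 9.09 CPM in KO and 55.9 ± 17.5 CPM in wild type libraries (SD, n = 4 each), with overlap. Whether the make-up of the sorted cells has a part in the Cdkn1a difference was not tested.

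The genes whose profile over the 8 libraries was most like that of Cdkn1a were found among 11407 genes by the root mean square difference of centred log2 CPM. They were Tcam1 at 0.171, Ric3 at 0.229, Atpsckmt at 0.234, Plaur at 0.241, Dglucy at 0.255 and AU021063 at 0.265, where the median gene was at 0.633 and a gene with no variation would be at 0.562. Tcam1 was at 24.0, 18.8, 20.7 and 18.5 CPM in KO libraries, against 11.3, 10.4, 10.6 and 12.1 CPM in wild type libraries. Plaur, which encodes the urokinase receptor, was at 29.5, 28.3, 36.5 and 20.1 CPM in KO libraries, against 15.1, 18.0, 16.5 and 18.5 CPM in wild type libraries. Dglucy, which encodes D-glutamate cyclase, was at 33, 27.7, 33.6 and 32.8 CPM in KO libraries, against 16.6, 18.2, 16.2 and 16.2 CPM in wild type libraries. Since likeness to Cdkn1a selects genes that are higher in KO libraries, that difference is no result about them. None of the other 9 G1 genes was among the 6.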

How the data were processed

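RNA from sorted LSK cells of 4 Jmjd6 KO and 4 wild type mice was measured in 8 libraries, 1 per mouse per the labels, so the spread between libraries includes that between mice. The values are the raw whole-number counts per gene symbol that the authors deposited. Reads were aligned with HISAT2 to mm10, per the submitters' processing notes. The counting step, with its gene models and strand setting, was not given in the sources used here. All pairs of replicates differed by more than sampling noise (chi-square per degree of freedom 6.561 to 86.89), and the common biological coefficient of variation was 27.8%.

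KO and wild type libraries were compared in R 4.3.3 by edgeR 4.0.16 (quasi-likelihood test), with TMM scaling and filterByExpr (min.count 10, min.total.count 15), and called at a Benjamini-Hochberg adjusted p under 0.05. Log2 CPM used a prior count of 2. DESeq2 1.42.0 and limma 3.58.1 (voom) were alternatives, beside other scalings, filters and thresholds, a Y-linked covariate, a replicate block and leaving out libraries. Scripts were tested on simulated data. Positions and lengths came from GENCODE M21.

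The 10 genes, the lists and the tests were chosen with earlier results of these data known. Named genes were these 10, Jmjd6, up to 3 genes per list and 3 within 500 kb of Cdkn1a by smallest p, the 6 most like Cdkn1a and those sharing bases with the 10. Mdm2, Ccng1, Plk2, Trp53cor1 and the markers quoted were named outside that rule.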

Additional observations from a re-analysis of the deposited data

Results flagged for a closer look

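Of 38 groups of 4 libraries examined, 1 held a library far from the others by Dixon's criterion. Cdkn1b was at 36.9 CPM in Jmjd6 KO replicate 3, while the other KO libraries lay between 19.0 and 20.1 CPM, so the gap to the nearest library was 0.938 of the whole range. A flag of this kind in 1 of 38 groups is no more than chance alone gives. That library also stood apart on the first principal component and had 0 Y-linked counts, and the part of either in the Cdkn1b value was not tested.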

How the results depend on the processing

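The log2 fold change of Cdkn1a was above 0 under all 19 alternatives, a sign that groups without overlap all but fix in advance. It was 0.94 to 1.17 when 1 library was left out (edgeR adjusted p of 0.147 without KO replicate 4 to 0.483 without wild type replicate 3). It passed the threshold with DESeq2 (1.05, adjusted p = 0.00051) and limma voom (1.14, adjusted p = 0.016). The labels do not say whether the replicate numbers pair the mice. Same-numbered libraries correlated at -0.19 to 0.03 and 0 correlated best with their own number, which does not settle whether mice were handled in pairs. The replicate block gave Cdkn1a 1.04 (edgeR adjusted p = 0.721, the highest of any alternative) and 3 genes called. The 8 genes called by edgeR became 72 with DESeq2, 31 with limma voom, 15 with the Y-linked covariate, 4 in the 6 libraries with Y-linked counts, 4 without wild type replicate 1 and KO replicate 3, 2 at a threshold of 0.01, and 2 to 8 with 1 library left out. The KO minus wild type difference of the Cdkn1a to Cdkn1b ratio was 2.97 (2.14 to 3.76 with 1 library left out). Differences in D cyclin shares were 0.666 points for Ccnd1 (-0.309 to 1.31), -2.56 for Ccnd2 (-5.71 to 0.139) and 1.89 for Ccnd3 (-1.45 to 4.47).

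Some log2 fold changes changed sign, among them Cryab (0.60), Lin54 (0.20) and Cdk2 (0.19), and the cause was not tested. With library size only they were -0.02 for Ccnd3, -0.04 for Ccnh, -0.05 for Cdk7, -0.01 for Rb1 and -0.04 for Rcbtb2. With limma voom they were -0.07 for Ccnh, -0.10 for Cdk7, -0.08 for Cdkn1b, -0.48 for Cryab, -0.05 for Rb1 and -0.03 for Rcbtb2. In the 6 libraries with Y-linked counts they were -0.01 for Ccnh, -0.11 for Cdk7, -0.04 for Cdkn1b, -0.14 for Rb1 and -0.01 for Rcbtb2. Without wild type replicate 1 and KO replicate 3 they were -0.02 for Cdk2, -0.13 for Cdk7, -0.21 for Cdkn1b, -0.42 for Cryab and -0.03 for Lin54. Cdk7 was at -0.01 with the Y-linked covariate, with no filter and with the replicate block. Leaving out 1 library at a time gave ranges of -0.11 to 0.30 for Ccnd1, -0.08 to 0.18 for Ccnd3, -0.04 to 0.13 for Ccnh, -0.01 to 0.25 for Cdk6, -0.13 to 0.11 for Cdk7, -0.18 to 0.25 for Cdkn1b, -0.10 to 0.08 for Cdkn2c, -0.34 to 0.93 for Cryab, -0.31 to 0.01 for Fbxw8, -0.13 to 0.24 for Rb1 and -0.02 to 0.07 for Rcbtb2. Of 171 alternative values of the 9 members other than Cdkn1a, 0 passed the threshold and 21 had the other sign, with Cdk4 at -0.02 once the trend on length and level was removed (0.07 to 0.19 with 1 library left out). Cks2 was also at -0.02 with that trend removed, and Cdkn2d ranged from 0.28 to 0.59 with 1 library left out.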
